A study of Mus musculus with 6 samples.

Results

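Rod bipolar cells carry the signal of rods into the inner retina, and *Prkca*, *Pcp2*, *Car8* and *Sebox* are 4 genes used to mark them. These 4 genes were picked by symbol from the 21744 genes of a retinal expression table at postnatal day 7 (P7), and all 4 exceeded the minimum mean of 0.1 FPKM that left 15200 genes for testing. FPKM is the number of sequenced fragments per kilobase of transcript, scaled to the mapped total of the library. The comparison asked how these markers stood in retinas labelled as mutant for the LIM-homeodomain factor LHX4, which is required for bipolar cell development.

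The retinas of 3 control mice and 3 mice labelled *Lhx4* mutant were sequenced, with 1 library per mouse, all at P7 and all on a mixed C57BL/6J and 129S6 background. In the study, *Lhx4* null means *Lhx4* tdT/loxP; *Six3*-Cre, a tdTomato knockin allele over a conditional allele that Cre driven by *Six3* deletes in the retina. Wild type and *Lhx4* loxP/+ mice served as controls for its electroretinograms, *Lhx4* tdT/+ and *Lhx4* loxP/tdT mice for its tdTomato counts, and the genotype of the control mice behind the libraries is not given in the sources used here. Animals of both sexes were used in the study, and the sex of each mouse is not given in these sources. The whole neural retina was sequenced, so fewer rod bipolar cells and less RNA per rod bipolar cell cannot be told apart in these values. Nor are the 4 genes confined to rod bipolar cells. The study lists *Pcp2* for ON bipolar cells in general, cone bipolar ones included, and for some other bipolar types. It lists *Sebox* for another bipolar type too, and notes PRKCA in some amacrine cells. The share of such cells in the values of the members was not tested.

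The smallest values of the table moved in steps of whole fragments, which gave the depth of each library relative to control 1. It was 0.801 in control 2 and 1.05 in control 3, against 0.487, 0.600 and 0.689 in the libraries labelled *Lhx4* null 1, 2 and 3. Every control library was therefore deeper than every library labelled *Lhx4* null, and the part of this difference in the results was not tested. With the annotated lengths of genes that have a single transcript, the steps corresponded to about 37200000, 29700000 and 38900000 fragments in the controls and 18100000, 22300000 and 25600000 in the others. By the same estimate *Car8* had about 354, 493 and 364 fragments against 89, 91 and 119, and counting error alone is then from 4.50% to 5.32% of its value in the controls and from 9.16% to 10.6% in the others. *Sebox*, with fewer exon bases (1359), had at most about 138, 214 and 166 fragments against 46, 49 and 55, with a counting error of at least 6.83% to 8.50% and 13.5% to 14.7%. It thus had fewer fragments than *Car8*. *Pcp2* and *Prkca* had at most 365 and 3151 in the library where each limit was lowest. The values of *Sebox*, *Pcp2* and *Prkca* are upper limits because the exons of all their transcripts were joined. An upper limit does not show that *Pcp2* or *Prkca* had more fragments than the other members.

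The targeted gene, *Lhx4*, was at 20.9, 23.8 and 19.1 FPKM in controls 1, 2 and 3 against 31.2, 30.3 and 29.0 FPKM in those labelled *Lhx4* null. The log2 difference was 0.51 (SE 0.091, limma adjusted p = 0.0978), higher and not lower in the libraries labelled null. A value for the whole gene does not show which exons were read, and with a knockin allele it may not tell the genotypes apart. *Bhlhe23*, a bHLH factor gene, was at 6.51% of its control mean in the libraries labelled null. The study also reports *Bhlhe23* as lost in its *Lhx4* null retinas by in situ hybridization, so this gene ran in the direction of the labels. The libraries of the mice labelled *Lhx4* mutant are called libraries labelled *Lhx4* null throughout, after the study's term.

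In the rod circuit, a rod bipolar cell receives glutamate from rods at the metabotropic receptor mGluR6, whose G protein cascade holds the TRPM1 channel closed in the dark. Its axon contacts AII amacrine cells, which pass the signal to the cone pathways. *Prkca* encodes protein kinase C alpha, the classic antigen for staining these cells. *Pcp2* encodes a GoLoco protein that binds Gi and Go alpha subunits, *Car8* a carbonic anhydrase-related protein without catalytic activity that binds the IP3 receptor, and *Sebox* a paired-class homeodomain protein.

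All 4 markers were lower on average in the libraries labelled *Lhx4* null, by unequal amounts. *Pcp2* was the lowest relative to control, at 20.8% of the control mean, followed by *Car8* at 38.5%, *Sebox* at 45.5% and *Prkca* at 72.1%. Only *Pcp2* passed an adjusted p under 0.05 in limma, 1 of 4 members, where 21 of 15200 genes tested (0.138%) were called lower and 13 (0.0855%) higher. The count of lower genes was 13 without control 1, control 2 or library 3 of those labelled *Lhx4* null. The count of higher genes was 3 without control 1, control 3 or library 2 of that group, 7 without control 2 and 2 without its library 3. At an unadjusted p under 0.05, 4 of 4 members were lower, against 3.55% of all genes tested, while 4.60% of all genes were higher at that level and 53.3% had a positive log2 difference. With 1 library left out, the genes lower at that level numbered 306 to 915, against 540 with all, and those higher 384 to 1065, against 699. The groups did not overlap in 3 of the 4 members, all but *Prkca*, against 6.13% of all genes whose 3 libraries labelled *Lhx4* null lay below the 3 controls. The study's text names *Pcp2*, *Car8* and *Sebox*, and not *Prkca*, among genes lowered in these same libraries, so their direction is not independent evidence.

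**Figure D1:**
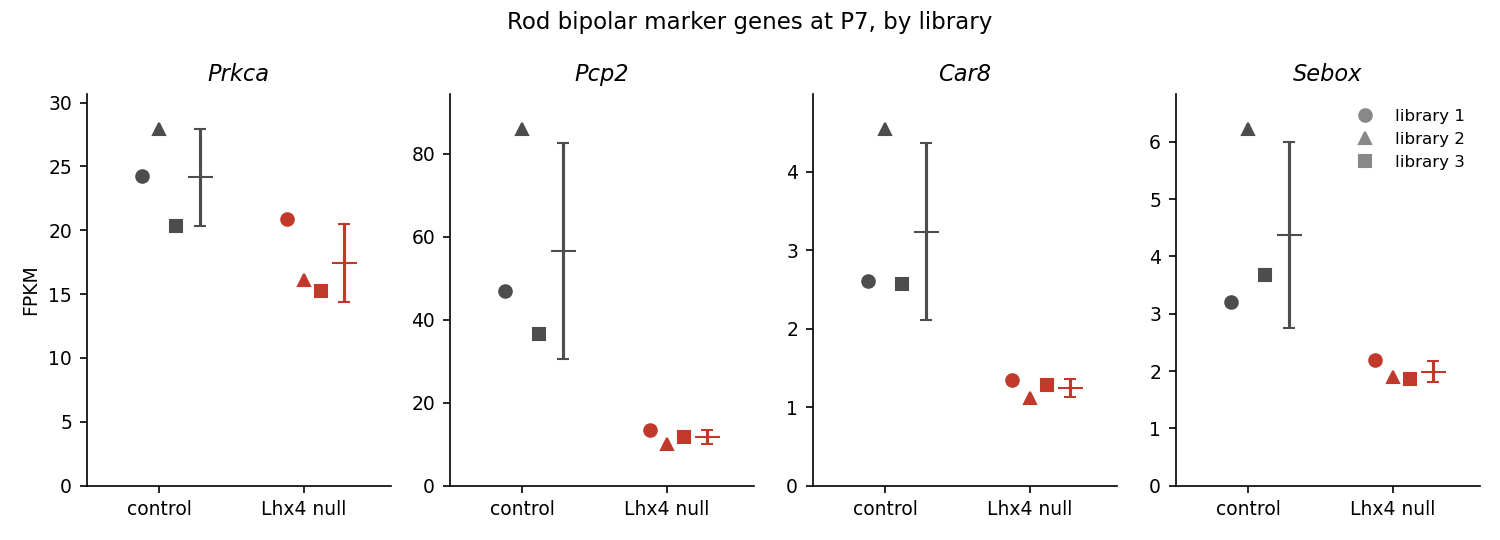
FPKM of *Prkca*, *Pcp2*, *Car8* and *Sebox* in each of the 6 P7 libraries, with the mean and SD of each group of 3 beside the points and every axis starting at 0. Control 2 is the highest control in all 4 panels, and the groups overlap in *Prkca*, where a library labelled *Lhx4* null at 20.9 FPKM lies above a control at 20.3 FPKM.

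*Pcp2* (ENSMUSG00000004630) lies on the minus strand of chromosome 8 of GRCm38, from 3623371 to 3625545. It was at 47.0, 85.9 and 36.6 FPKM in controls 1, 2 and 3 against 13.4, 10.1 and 11.8 FPKM in those labelled *Lhx4* null. The lowest control was 2.73 times the highest of these, so the groups did not overlap although the controls differed among themselves by 2.35 times. The means were 56.5 ± 26.0 and 11.8 ± 1.67 FPKM (SD, n = 3 each). On the log2(FPKM + 0.1) scale, which is used for every difference here and understates the change of low genes, *Pcp2* fell by 2.17 (95% interval -2.80 to -1.54, limma adjusted p = 0.0277), or 4.50-fold. By p-value it was 22nd of 15200 genes. Leaving out control 1 took its adjusted p to 0.0618 in limma, and leaving out a library labelled *Lhx4* null 1, 2 or 3 took it to 0.0515, 0.164 or 0.112. Without control 2, the highest control, the log2 difference was -1.82 with an adjusted p of 0.00987 in limma, and over 14 alternative settings the adjusted p ran from 0.00987 to 0.365.

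Of the 1828 exon bases of *Pcp2* in GENCODE vM21, 51.5% are shared with exons of *Pet100*, a mitochondrial assembly factor gene on the opposite strand. Whether the authors' estimates used strand is not given in the sources used here, so reads in this overlap may have been counted for either gene. *Pet100* was at 4.81, 3.80 and 5.03 FPKM in the controls against 4.26, 4.31 and 4.56 FPKM in those labelled *Lhx4* null, a log2 difference of -0.05 (limma adjusted p = 0.948). Its values lay in an overlapping range in both groups. They were low beside those of *Pcp2* in the controls and less so in the others, where *Pcp2* was at 10.1 to 13.4 FPKM, and the part of the shared bases in the values of *Pcp2* was not tested. The flanking genes *Xab2* and *Stxbp2* had log2 differences of 0.07 and -0.15, also with overlapping groups.

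*Car8* (ENSMUSG00000041261) spans 8143362 to 8239041 on the minus strand of chromosome 4 of GRCm38 and has 1 annotated transcript that shares no exon base with another gene. Its level was about an order of magnitude below that of *Pcp2*, at 2.60, 4.54 and 2.57 FPKM in the controls and 1.34, 1.12 and 1.28 FPKM in those labelled *Lhx4* null. Every library of the latter group lay below every control. The means were 3.24 ± 1.13 and 1.24 ± 0.117 FPKM (SD, n = 3 each), a log2 difference of -1.26 (95% interval -1.78 to -0.75, unadjusted p = 4.33e-04 and adjusted p = 0.0968 in limma). *Car8* therefore did not pass the threshold over all genes tested, and it did not pass in any of 14 alternative settings (adjusted p from 0.0941 to 0.457). Its neighbours *Tox* and *Rab2a* had log2 differences of 0.14 and 0.01 with overlapping groups.

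*Sebox* (ENSMUSG00000001103), on the plus strand of chromosome 11 from 78503447 to 78505081, lies just downstream of *Vtn*, the vitronectin gene, on the same strand. It was at 3.21, 6.22 and 3.68 FPKM in the controls against 2.20, 1.90 and 1.86 FPKM in those labelled *Lhx4* null. The groups did not overlap, with the lowest control at 1.46 times the highest of the others. The means were 4.37 ± 1.62 and 1.99 ± 0.186 FPKM (SD, n = 3 each), a log2 difference of -1.04 (95% interval -1.57 to -0.52, unadjusted p = 0.00174 and adjusted p = 0.211 in limma). Like *Car8*, it did not pass in any of 14 alternative settings (adjusted p from 0.167 to 0.581). *Vtn* was at 13.3, 19.6 and 14.5 FPKM against 21.0, 12.4 and 14.0 FPKM (log2 difference -0.01), and its groups overlapped.

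*Prkca* (ENSMUSG00000050965) covers 107933387 to 108343928 on the minus strand of the same chromosome, and 30 of its 8992 exon bases are shared with *Apoh*, which was under 0.2 FPKM in every library. It was at 24.2, 27.9 and 20.3 FPKM in the controls against 20.9, 16.1 and 15.3 FPKM in those labelled *Lhx4* null. The library labelled *Lhx4* null 1 lay above control 3, and *Prkca* was the only member with such an overlap. The means were 24.2 ± 3.79 and 17.4 ± 3.05 FPKM (SD, n = 3 each), a log2 difference of -0.47 (95% interval -0.81 to -0.13, unadjusted p = 0.0123 and adjusted p = 0.484 in limma). It passed in none of 14 alternative settings, where its adjusted p in limma lay between 0.151 and 0.910. The antigen most used to stain rod bipolar cells was thus the marker with the smallest log2 difference of the 4.

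The exact permutation test over the 6 libraries gave a two-sided p of 0.1 for *Pcp2*, *Car8* and *Sebox*, the smallest that 3 libraries against 3 allow, and 0.2 for *Prkca*. In order of control level the markers ran *Pcp2*, *Prkca*, *Sebox*, *Car8*. In the libraries labelled *Lhx4* null the order was *Prkca*, *Pcp2*, *Sebox*, *Car8*, since *Pcp2* lay above *Prkca* in every control and below it in every one of the other libraries. *Sebox* was above *Car8* in each of the 6 libraries; the values of *Pcp2* and *Prkca* in the controls, and of *Sebox* and *Car8*, were otherwise not tested against each other.

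To compare the members with each other, the log2 difference between 2 members was taken inside each library, where a factor common to the library drops out. *Prkca* minus *Pcp2* was -0.95, -1.62 and -0.85 in the controls and 0.64, 0.67 and 0.37 in the libraries labelled *Lhx4* null. The group means lay 1.70 apart on the log2 scale, which is the gap between the 2 members' differences, and *Prkca* was the lower of the pair in each control and the higher in each other library. The means of *Prkca* minus *Car8* lay 0.79 apart and those of *Prkca* minus *Sebox* 0.57, also without overlap. *Pcp2* minus *Car8* was 4.12, 4.21 and 3.78 in the controls and 3.23, 3.06 and 3.11 in the others, a difference of -0.90, and for *Pcp2* minus *Sebox* the difference was -1.12. The smallest difference was that of *Car8* minus *Sebox*, at -0.22, with the nearest libraries at -0.50 and -0.51. All 6 pairs had a two-sided p of 0.1 by the exact permutation test, and 0.1 again after Benjamini-Hochberg adjustment over the 6 pairs, so no pair passed 0.05, which 3 libraries against 3 cannot reach. With a pseudocount of 1 FPKM the groups overlapped for *Prkca* minus *Sebox* and *Car8* minus *Sebox* (exact permutation p = 0.3), at 0.36 and -0.08, and the difference for *Prkca* minus *Car8* was 0.43. Without control 2, a setting chosen after seeing the data, the differences of *Prkca* from *Pcp2*, *Car8* and *Sebox* were 1.46, 0.64 and 0.40.

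**Figure D2:**
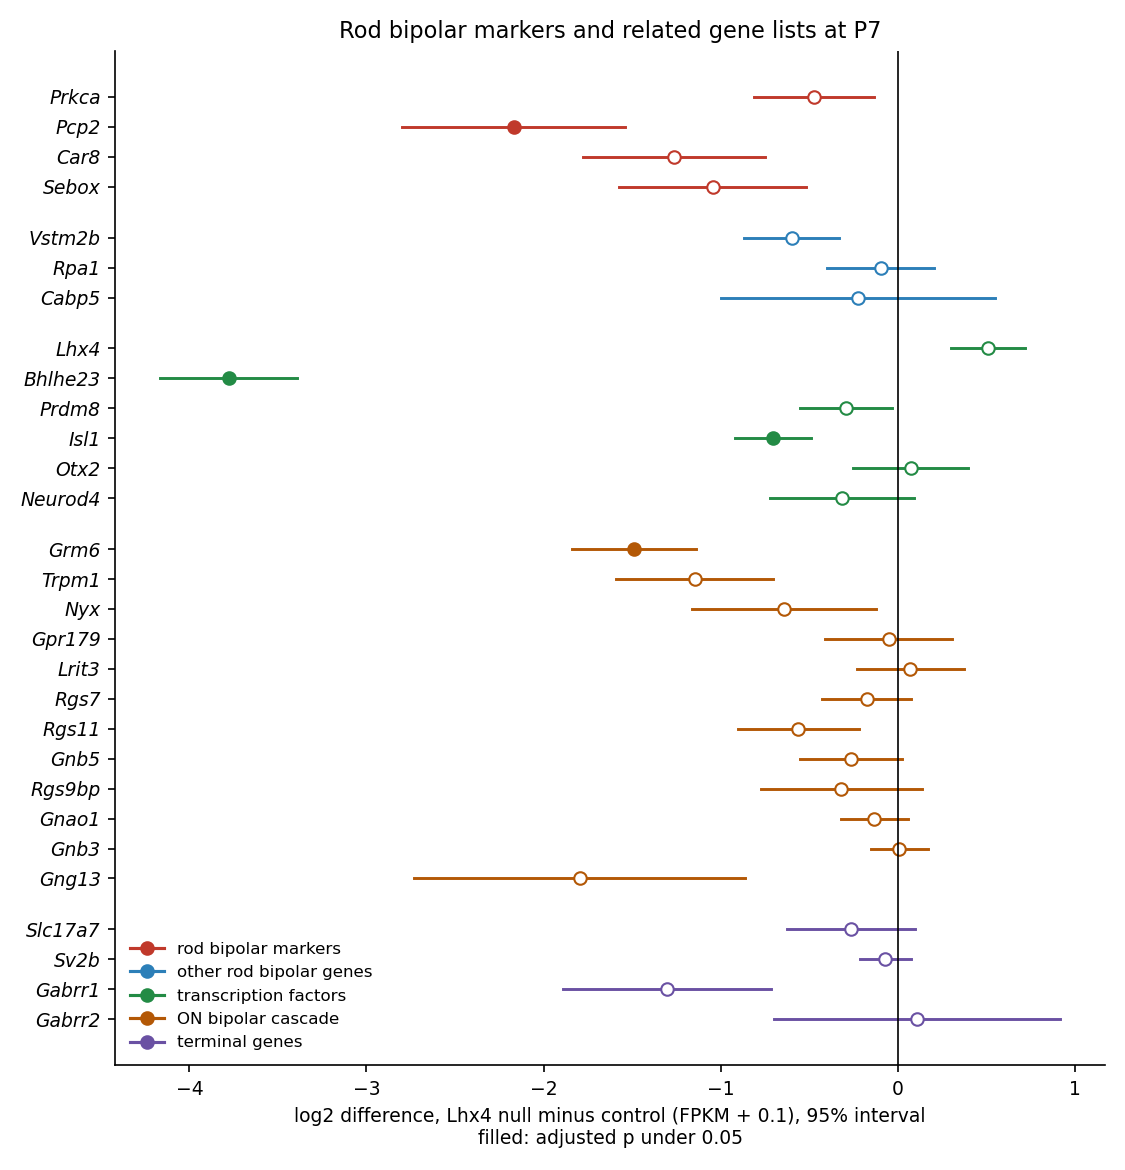
Log2 difference of the 4 members and of 25 genes in 4 related lists, as libraries labelled *Lhx4* null minus control libraries (n = 3 each) on the log2(FPKM + 0.1) scale, with the 95% interval of limma. Filled points have an adjusted p under 0.05 over 15200 genes: *Pcp2* among the members, and *Bhlhe23*, *Isl1* and *Grm6* among the others.

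With all 3 controls, these markers varied more among controls than most genes of like level. The SD of log2(FPKM + 0.1) over the 3 controls was 0.63 for *Pcp2*, above that of all 500 tested genes nearest to it in mean level. It was 0.49 for *Sebox*, 0.46 for *Car8* and 0.23 for *Prkca*, higher than in 97.2%, 95% and 95.2% of the 500 genes nearest to each in level. The median over all genes tested was 0.11. In the libraries labelled *Lhx4* null the SD was 0.21 for *Pcp2* and 0.24 for *Prkca*, higher than in 83.6% and 89.6% of like genes, but 0.13 for both *Car8* and *Sebox*, higher than in only 26.4% and 28.0%. The SD was greater among controls for 3 of the 4 members, as in 32.7% of all genes tested, whose median SD was 0.16 in the libraries labelled *Lhx4* null. This rested on control 2 in part. Without it, a setting chosen after seeing the data, the SD of the other 2 controls was 0.25 for *Pcp2*, 0.18 for *Prkca*, 0.14 for *Sebox* and 0.01 for *Car8*, higher than in 99.4%, 98.2%, 69.8% and 9.6% of like genes. *Car8* then spread less among controls than in the other group, *Sebox* about as much, and the SD was greater among controls in 18.6% of all genes tested. With all libraries, the coefficient of variation was 46.0%, 34.9% and 37.0% for *Pcp2*, *Car8* and *Sebox* in the controls against 14.2%, 9.40% and 9.39% in the others. For *Prkca* it was 15.7% and 17.5%.

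**Figure D3:**
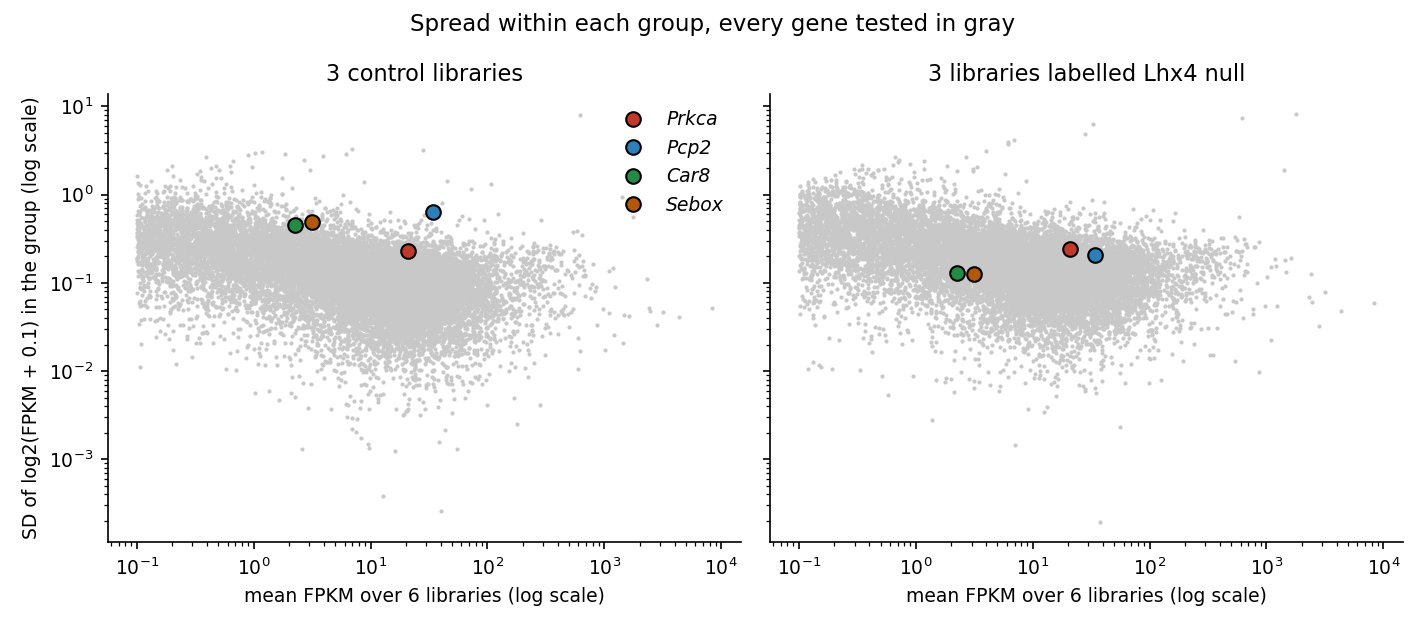
SD of log2(FPKM + 0.1) within the 3 control libraries and within the 3 libraries labelled *Lhx4* null against the mean FPKM over all 6, both on log axes, with each of 15200 genes in gray and the 4 members in color. *Pcp2*, at 0.63, lies above the 500 genes of like level among the controls and within the cloud in the other group, at 0.21.

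A single library, control 2, stood apart. It was the highest control in 4 of 4 members, where it was the highest control in 39.1% of all genes tested. Its FPKM exceeded the mean of controls 1 and 3 by 2.06 times in *Pcp2*, 1.81 times in *Sebox*, 1.76 times in *Car8* and 1.25 times in *Prkca*. On the log2 scale these excesses were 1.05, 0.84, 0.79 and 0.33, larger than in 99.5%, 99.0%, 98.8% and 90.6% of all genes tested. The log2 difference between groups without control 2 was -1.82 for *Pcp2*, -1.00 for *Car8*, -0.77 for *Sebox* and -0.36 for *Prkca*. All 4 were smaller in size than with it and none changed sign, and only that of *Pcp2* had an adjusted p under 0.05 in limma.

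Among the libraries labelled *Lhx4* null, library 1 was the highest in 4 of 4 members, as it was in 32.3% of all genes tested. Both conditions, control 2 highest among controls and library 1 highest among the others, were met by 19.0% of all genes tested. The same libraries were high in genes of several other lists, rod phototransduction among them. *Gnat1*, rod transducin, was at 29.2, 84.3 and 35.8 FPKM in the controls and at 56.1, 21.2 and 20.05 FPKM in the others. *Pde6a*, a rod phosphodiesterase subunit, was at 24.5, 47.3 and 26.5 FPKM and then at 33.6, 12.8 and 17.0 FPKM. Of the 7 rod markers, 5 were highest in control 2 among controls and 6 in library 1 among those labelled *Lhx4* null. The exceptions among controls were *Nrl* and *Nr2e3*, transcription factors of rod fate, and *Nr2e3* was also the exception in the other group. Counts of the same kind were 6 and 5 of 7 for Müller glia markers, 6 and 5 of 7 for ganglion cell markers, 4 and 4 of 5 for red blood cell genes, 4 and 2 of 4 for endothelium markers and 11 and 9 of 12 for genes of the ON bipolar cascade, but 2 and 6 of 8 for cone markers, 2 and 1 of 6 for pigment epithelium markers, 0 and 2 of 4 for horizontal cell markers, 15 and 5 of 20 for cone bipolar markers, 6 and 3 of 8 for amacrine markers, 4 and 1 of 7 for the relatives and partners of *Pcp2* and 2 and 0 of 5 for paired-class genes. They were 3 and 2 of 3 for other rod bipolar genes and 4 and 2 of 6 for transcription factors of rod bipolar development. For rod bipolar terminal genes they were 4 and 3 of 4, and for other protein kinase C genes 5 and 4 of 8. For other carbonic anhydrases they were 6 and 7 of 11, and for IP3 receptors 2 and 1 of 3. For AII amacrine and microglia markers they were 3 and 3 of 5 and 4 and 2 of 5. No cut was set for having the pattern, and high counts were not confined to rod markers. Within each group, then, the library highest in *Gnat1* and *Pde6a* was also the highest in each of the 4 rod bipolar markers, and the part of this in the difference between groups was not tested. Without library 1 of those labelled *Lhx4* null, the log2 difference was -2.27 for *Pcp2* and -0.61 for *Prkca*.

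**Figure D4:**
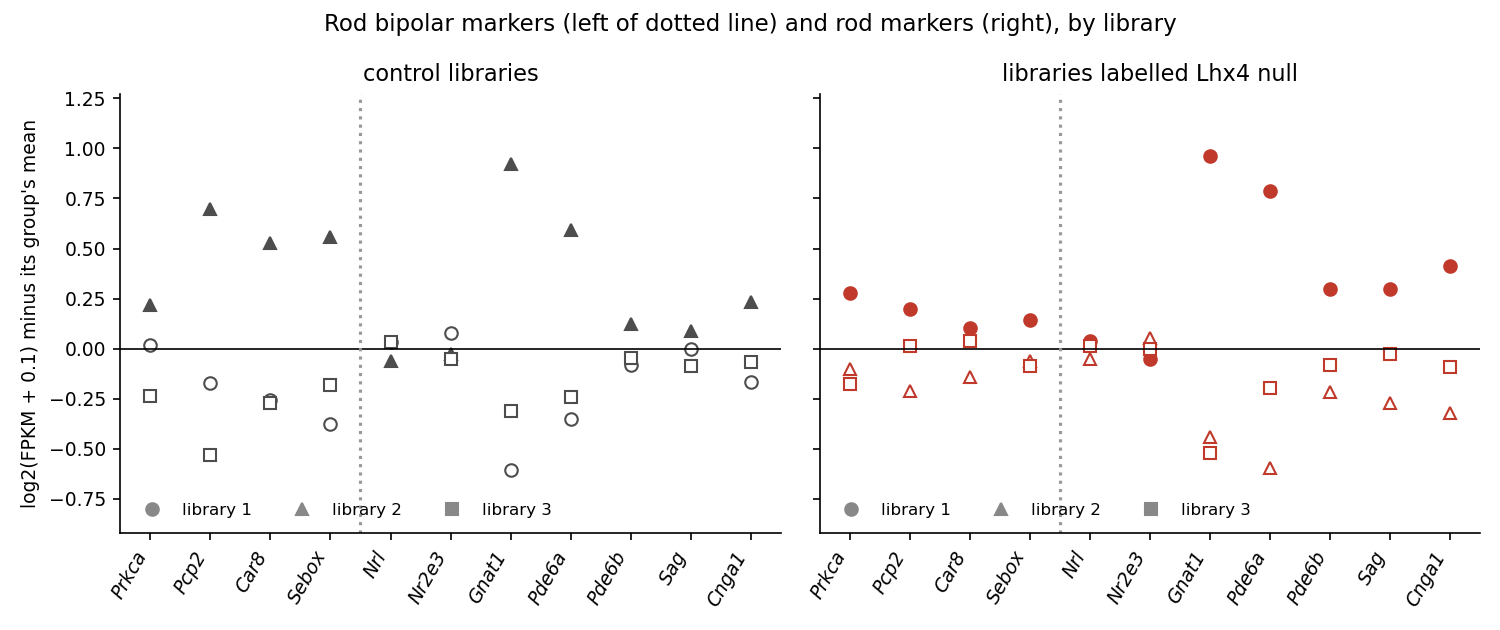
Log2(FPKM + 0.1) of each library minus the mean of its own group, for the 4 rod bipolar markers and 7 rod markers, with control 2 and the library labelled *Lhx4* null 1 filled. The filled symbols are the highest of their group in all 4 rod bipolar markers and in *Gnat1* and *Pde6a*, but not in *Nr2e3*.

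Other genes known from rod bipolar cells differed from each other in size of difference. *Vstm2b* was at 12.3, 13.8 and 10.4 FPKM in the controls against 7.55, 7.76 and 8.63 FPKM in those labelled *Lhx4* null (log2 difference -0.60, unadjusted p = 8.49e-04 and adjusted p = 0.137 in limma). *Rpa1* and *Cabp5* had log2 differences of -0.10 and -0.22 with overlapping groups. *Cabp5*, a calcium-binding protein of rod and some cone bipolar cells, spread widely, at 16.8, 25.8 and 17.8 FPKM against 30.2, 10.8 and 14.8 FPKM, and library 1 was again its highest. Of these 3 genes, 0 passed an adjusted p under 0.05 in limma and 1 was lower at an unadjusted p under 0.05, with a median log2 difference of -0.22, where the median of all genes tested was 0.01. The median of the 3 was -0.03 without control 2, -0.34 without control 1, and -0.56, -0.04 and -0.13 without library 1, 2 or 3 of those labelled *Lhx4* null, with 2 lower at an unadjusted p under 0.05 without library 1.

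Transcription factors that act in rod bipolar development included the largest fall of any listed gene. *Bhlhe23*, a bHLH factor that rod bipolar cells need, was at 10.2, 13.0 and 10.6 FPKM in the controls against 0.814, 0.563 and 0.830 FPKM in those labelled *Lhx4* null (log2 difference -3.78, SE 0.169, limma adjusted p = 1.71e-04). The groups stood further apart than in any member, and it passed in 13 of 14 alternative settings, all but the fit with no filter. *Isl1*, which encodes the LIM-homeodomain partner ISL1, fell by 0.70 (limma adjusted p = 0.0306), from 119.7, 130.6 and 106.2 FPKM to 76.2, 67.4 and 74.7 FPKM, although it passed in 6 of 14 alternative settings. Its adjusted p in limma was 0.139 without control 1, 0.0878 without control 2, and 0.0523, 0.154 and 0.107 without library 1, 2 or 3 of those labelled *Lhx4* null. By staining, the study reports ISL1 protein in bipolar cells as unaffected at P6 and fewer ISL1-positive ON bipolar cells in adults. Those ages and that measure differ from the RNA of whole retina at P7 here. Of the 6 factors, 2 fell past the threshold and 0 rose, with a median log2 difference of -0.30 (-0.46 to -0.17 with 1 library left out). At an unadjusted p under 0.05, 1, *Lhx4*, was higher (2 without library 1 of those labelled *Lhx4* null). At that level 3 were lower (from 2 to 4 with 1 library left out). *Prdm8*, of whose exon bases 29.1% are shared with another gene, was the other of the 3, at 19.8, 22.0 and 19.9 against 15.3, 19.9 and 15.3 FPKM in overlapping groups (log2 difference -0.29, unadjusted p = 0.0321 and adjusted p = 0.586 in limma). *Otx2*, the most abundant of the list, and *Neurod4* also overlapped, with log2 differences of 0.07 and -0.31.

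The cascade that couples mGluR6 to TRPM1 is common to rod bipolar and ON cone bipolar cells. *Grm6*, the gene of mGluR6, was at 56.0, 74.3 and 51.2 FPKM in the controls against 23.5, 17.9 and 22.7 FPKM in those labelled *Lhx4* null (log2 difference -1.49, limma adjusted p = 0.00912). The channel gene *Trpm1* was at 32.2, 47.9 and 27.0 FPKM against 16.4, 13.6 and 17.1 FPKM (log2 difference -1.15, limma adjusted p = 0.0880). Both genes thus had the same high control as the 4 markers, and the study names both, with *Gng13*, *Gabrr1* and *Bhlhe23*, among genes lowered in these libraries, so their direction is not independent evidence. Of the 12 cascade genes, 1 fell past the adjusted threshold in limma and 0 rose, while 5 were lower at an unadjusted p under 0.05. These were *Grm6*, *Trpm1*, *Nyx*, *Rgs11* and *Gng13*, and for *Gng13* (log2 difference -1.80) 51.6% of exon bases are shared with another gene. The other 7 had overlapping groups, among them *Gpr179* (-0.05), *Lrit3* (0.07) and the most abundant, *Gnb3* (0.01), which cones also express. The median log2 difference of the 12 was -0.29. It was -0.19 without control 2, -0.18 without library 2 of those labelled *Lhx4* null and -0.48 without library 1 of that group, when 7 were lower at an unadjusted p under 0.05. *Grm6* passed in 9 of 14 alternative settings, and not without library 2 or library 3 of those labelled *Lhx4* null (limma adjusted p = 0.0560 and 0.0514, range over the 14 from 0.00745 to 0.249).

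Genes of the rod bipolar terminal gave a like picture of unequal values. *Gabrr1*, a subunit of the GABA-C receptor on the axon terminal, was at 15.9, 22.4 and 15.3 FPKM in the controls and at 9.70, 4.68 and 7.79 FPKM in the others (log2 difference -1.30, limma adjusted p = 0.137). *Slc17a7*, the vesicular glutamate transporter, which photoreceptors share, had overlapping groups (-0.26), as had *Sv2b* (-0.07) and *Gabrr2* (0.11). So 0 of 4 passed in limma, 1 was lower at an unadjusted p under 0.05, and the median was -0.17. It was -0.27 without library 1 of those labelled *Lhx4* null, with 2 lower, and -0.10 without library 2.

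By the root mean square difference between centered log2 profiles over the 6 libraries, the genes most like each member were sought among 12484 others with a mean of at least 1 FPKM. For *Car8* they were *Trpm1* (0.11), *Sebox* (0.14) and *Grm6* (0.17), and for *Sebox* they were *Synj2* (0.14), *Car8* (0.14) and *Trpm1* (0.18). *Car8* and *Sebox* were therefore each among the 3 nearest genes of the other. *Pcp2* had no gene as near: *Opn1mw*, the M-opsin gene of cones, came first at 0.29, before *Nxph1* at 0.31 and *Grm6* at 0.40. *Opn1mw* was at 1.41, 2.75 and 1.46 FPKM in the controls against 0.699, 0.351 and 0.367 FPKM in those labelled *Lhx4* null. *Prkca* was nearest to *Tmem229b* (0.09), *Rgs11* (0.09) and *Car10* (0.09), with log2 differences of -0.46, -0.56 and -0.43. Between the members the distance was largest for *Prkca* and *Pcp2*, at 0.89. The measure takes in the difference between groups as well as the order of libraries within them.

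The relatives and partners of the member proteins were read in the same way. Of 7 tested genes for GoLoco proteins and Gi alpha subunits, the relatives and partners of *Pcp2*, 0 passed in limma, 0 were lower and 3 (*Gpsm2*, *Rgs12* and *Gnai2*) were higher at an unadjusted p under 0.05, with a median log2 difference of 0.08 (0.06 to 0.13 with 1 library left out), and *Gpsm1*, the most abundant, at -0.00. The 3 became 0 without control 2 and 1 without control 1, control 3 or library 2 or 3 of the other group. *Rgs14* was under the minimum level. Of the 8 other protein kinase C genes, 0 passed, *Prkce* was lower (-0.34) and *Prkch* higher (0.38) at an unadjusted p under 0.05 (0 higher without control 1 or library 3 of the other group), and the median was 0.07 (-0.00 to 0.12 with 1 library left out). *Prkcz*, the most abundant of them, had a log2 difference of -0.06. *Prkcb*, a conventional isoform like *Prkca*, was at 23.9, 26.6 and 24.6 FPKM against 25.8, 21.9 and 24.1 FPKM.

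Among 15 other carbonic anhydrase genes, 11 were tested and 0 passed in limma. *Car10*, like *Car8* a relative without catalytic activity, was lower at an unadjusted p under 0.05, while *Car9* and *Car12* were higher (0 higher without control 3), and the median was 0.04 (-0.02 to 0.09 with 1 library left out). *Car2*, the most abundant, had a log2 difference of -0.13. The 3 IP3 receptor genes, whose products CAR8 can bind, had log2 differences from -0.12 to 0.21 with overlapping groups, a median of 0.01 (-0.04 to 0.09 with 1 library left out), and 0 with an unadjusted p under 0.05, with *Itpr1* the most abundant. Of 5 paired-class homeobox genes of the retina, 0 passed in limma, 0 were lower, and *Vsx1* and *Pax6* were higher at an unadjusted p under 0.05. Without control 1 or control 3 that count was 0. It was 3 without library 1 of the other group and 1 without its library 2 or 3. The median of the 5 was 0.10 (0.05 without library 2, 0.19 without library 3 and 0.20 without library 1 of that group). *Crx*, the most abundant, had 0.09.

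**Figure D5:**
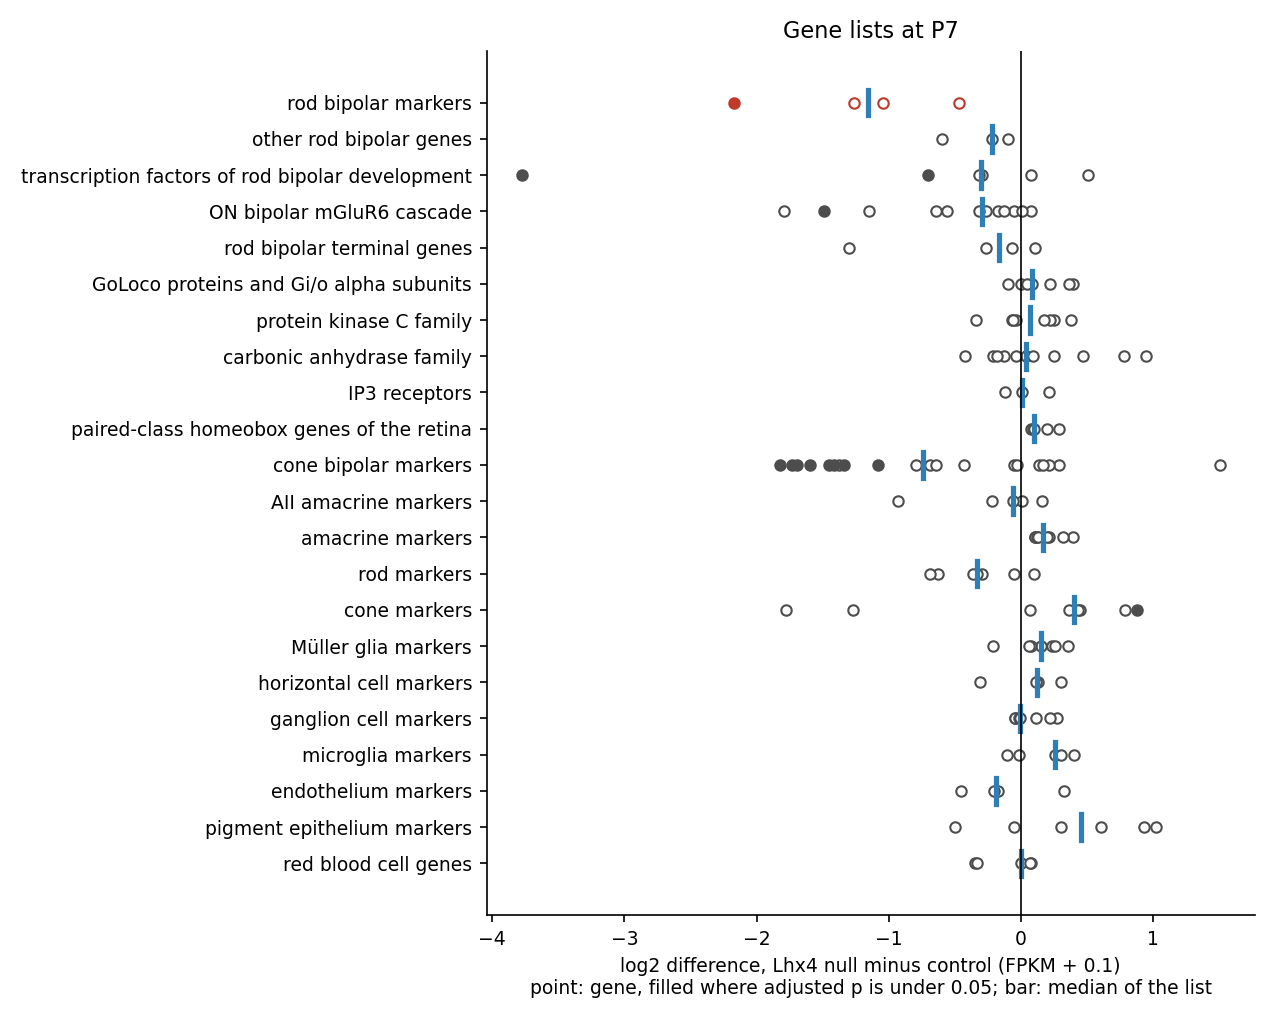
Log2 difference of each gene, as libraries labelled *Lhx4* null minus control libraries (n = 3 each), in the 4 members and in 21 gene lists, with a bar at each median and filled points where the adjusted p in limma is under 0.05. The cone bipolar list holds 8 filled points and a median of -0.74, and the lists of other cell types lie nearer to 0.

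Markers of the other cells of the retina were read beside the members. Of 20 cone bipolar markers, 8 fell past the adjusted threshold in limma and 0 rose, with a median log2 difference of -0.74 (-0.71 without control 2, when 6 passed, and 6 or 7 passed without any other library). The 8 were *Scgn*, *Fezf2*, *Grik1*, *Nxph1*, *Lhx3*, *Cdh8*, *Zfhx4* and *Slitrk6*, all of which the study also names as lowered in these libraries, so the direction is not independent evidence. *Scgn* and *Nxph1* passed in 6 and 4 of 14 alternative settings and the other 6 in 13, since with no filter on low values 0 of the 20 passed in limma and 12 were lower at an unadjusted p under 0.05. In *Lhx3* the controls were at 15.4, 15.8 and 15.3 FPKM and the libraries labelled *Lhx4* null at 5.40, 6.11 and 5.82 FPKM, the least spread among the controls of the 8. *Nxph1* was at 1.51, 2.54 and 1.51 FPKM in the controls, with control 2 the highest as in the rod bipolar markers, and control 2 was the highest control in 15 of the 20. Cone bipolar genes were not uniform. At an unadjusted p under 0.05 in limma, 12 of the 20 were lower and 2 higher (12 and 1 or 2 with a library left out). The 2 were *Vsx1*, the most abundant, with a log2 difference of 0.28, and *Cdh9*, with 1.50, both with overlapping groups. *Hcn4*, *Prkar2b* and *Kcnip3*, whose proteins the study used to mark cone bipolar types, had 0.14, -0.06 and -0.03. Of these, only *Hcn4* had groups that did not overlap, with the libraries labelled *Lhx4* null higher. The summed level of the list was 143, 160 and 148 FPKM in the controls and 90.2, 94.7 and 93.9 FPKM in the others.

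AII amacrine cells are the main targets of rod bipolar cells. Of 5 AII markers, 0 passed in limma and 2 were lower at an unadjusted p under 0.05, *Gjd2* (-0.22) and *Pvalb* (-0.93), the latter under 0.6 FPKM in every library. The 2 became 1 in 5 of the 6 fits that left out a library, all but the fit without library 1 of those labelled *Lhx4* null, and also with no filter, without the mean-variance trend and with the replicate block. Without control 2, 1 AII marker was also higher at an unadjusted p under 0.05. The median was -0.06 (-0.13 to 0.01 with 1 library left out), and *Calb2*, the most abundant, had -0.06. In the broader amacrine list all 8 genes had a positive log2 difference, against 53.3% of all genes tested, with 0 past the adjusted threshold in limma, 4 at an unadjusted p under 0.05, a median of 0.16 and *Pax6* the most abundant. The 4 became 1 without control 1 or control 3 and 2 without library 2 of those labelled *Lhx4* null or without the mean-variance trend. Its summed level was 416, 435 and 406 FPKM against 477, 500 and 448 FPKM.

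Of 7 rod markers, 0 passed and 0 had an unadjusted p under 0.05 in limma. Without library 1 of those labelled *Lhx4* null, 5 were lower at an unadjusted p under 0.05 and the median was -0.48, and without library 2 it was -0.19. With all libraries their median log2 difference was -0.33 with *Sag* the most abundant, and their summed level was 2634, 2758 and 2535 FPKM in the controls against 2649, 2194 and 2330 FPKM. Of 8 cone markers, *Opn1sw*, the S-opsin gene, rose past the threshold (log2 difference 0.88, limma adjusted p = 0.0306, under 0.05 in 6 of 14 alternative settings), and at an unadjusted p under 0.05 4 were higher and 2 lower. Without control 1, 2 or 3 the adjusted p of *Opn1sw* was 0.0618, 0.119 or 0.137 in limma, and without library 2 or 3 of the other group 0.0850 or 0.107. The 2 lower ones were *Opn1mw* and *Arr3*. Without library 1 of those labelled *Lhx4* null, 1 cone marker was lower past the adjusted threshold in limma. The median of the cone list was 0.40 (0.23 without control 2), and its most abundant gene, *Gngt2*, was at 287, 157 and 296 FPKM in the controls, lowest in control 2, where the rod bipolar markers were highest.

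The remaining lists held no gene past the adjusted threshold in limma. Of 7 Müller glia markers, 2 (*Vim* and *Apoe*) were higher at an unadjusted p under 0.05, with a median of 0.15 (0.06 to 0.30 with 1 library left out) and *Apoe* the most abundant. The 2 became 1 without control 1, control 3 or library 2 of those labelled *Lhx4* null, and 3 without control 2 or library 3 of that group. The 4 horizontal cell markers (median 0.12, 0.02 to 0.25 with 1 library left out, *Calb1* the most abundant) had none at that level, and 1 was lower without library 1 of those labelled *Lhx4* null. Of 7 ganglion cell markers, 1 was higher (*Pou4f1*), with a median of -0.01 (-0.03 to 0.05) and *Sncg* the most abundant, and of 5 microglia markers 1 was higher (*Csf1r*, also the most abundant), with a median of 0.26 (0.09 to 0.38, and 2 higher without library 2 of those labelled *Lhx4* null). The microglia median was 0.10 with a pseudocount of 1 FPKM and 0.12 with a filter at a mean of 1 FPKM. Of 4 endothelium markers, *Pecam1* was lower and *Kdr*, the most abundant, higher at an unadjusted p under 0.05, with a median of -0.19 (-0.27 to -0.04). Neither reached that level without control 1 or library 2 of those labelled *Lhx4* null. Without control 2 or library 3 of that group, 0 were lower and 1 was higher. Without control 3 or its library 1, 1 was lower and 0 were higher. The 5 red blood cell genes (median -0.00, *Hba-a2* the most abundant) had none at an unadjusted p under 0.05. Without control 3 all 5 were negative, 3 were lower at that level and the median was -0.29, against 0.16 without control 2.

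Pigment epithelium was removed when the retinas were isolated, and the levels of its markers differed between libraries. The summed level of its 6 markers was 35.8, 32.1 and 17.4 FPKM in the controls and 38.7, 50.5 and 68.4 FPKM in those labelled *Lhx4* null. *Ttr*, the most abundant, and *Pmel* were higher at an unadjusted p under 0.05 in limma and 0 of the 6 passed the adjusted threshold, with a median of 0.46 (0.19 without control 3, 0.20 without library 3 and 0.74 without library 1 of the other group). The 2 became 3 without control 1 or library 1 of that group, and without its library 3 1 was higher and 1 lower. The median was 0.23 with a pseudocount of 1 FPKM. It was 0.97 with a filter at a mean of 1 FPKM, which left 2 of the 6 genes. *Rpe65*, a defining marker, was between 0.457 and 1.61 FPKM in overlapping groups, and *Best1*, *Mitf* and *Tyr* also overlapped, with log2 differences of -0.50, -0.05 and 0.61. The sum, most of it *Ttr* and *Pmel*, was higher in each library labelled *Lhx4* null than in each control, and neither the tissue these transcripts came from nor their part in the differences of the rod bipolar markers was tested.

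The promoters of 3 of the 4 members were found in the RefSeq promoter table and are shown as a description. *Car8* is not in that table. *Pcp2* has 4 starts there, of which only the outermost was searched, and *Prkca* and *Sebox* have 1 each. Each run is the longest stretch of the 250 bases before the outermost RefSeq start that no annotated exon covers, on GRCm38.p6, written 5′ to 3′ on the strand of the gene: chr11:108343929-108344138 (minus strand) for *Prkca*, chr8:3625607-3625778 (minus strand) for *Pcp2* and chr11:78503263-78503446 (plus strand) for *Sebox*. Capitals mark matches to CANNTG, the general E-box bound by bHLH factors, and to TAAT on either strand, the short homeodomain core.
*Prkca*: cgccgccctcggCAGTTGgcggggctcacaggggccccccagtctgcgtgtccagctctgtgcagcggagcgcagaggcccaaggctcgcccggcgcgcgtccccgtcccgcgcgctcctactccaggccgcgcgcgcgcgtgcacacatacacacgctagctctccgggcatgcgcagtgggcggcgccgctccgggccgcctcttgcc
*Pcp2*: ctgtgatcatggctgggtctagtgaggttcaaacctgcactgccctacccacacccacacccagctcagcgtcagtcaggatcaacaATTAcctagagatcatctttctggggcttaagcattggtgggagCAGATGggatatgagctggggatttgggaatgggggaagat
*Sebox*: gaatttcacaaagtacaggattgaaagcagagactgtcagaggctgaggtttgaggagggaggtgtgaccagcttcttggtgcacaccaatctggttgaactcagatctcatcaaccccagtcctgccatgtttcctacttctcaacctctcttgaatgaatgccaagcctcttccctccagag

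In the 250 bases, CANNTG occurred once in *Prkca* and once in *Pcp2* and was held by 66.2% of 32851 promoter windows of that length. TAAT, which is part of both longer homeodomain motifs searched, occurred once in *Pcp2* and was held by 54.9%. Matches on either strand to TAATTA, a core bound by LIM-homeodomain factors (4.84% of windows), to TAATCC, the core of OTX2 and CRX (6.25%), and to CATATG, an E-box that is a case of CANNTG (3.46%), were 0 in each of the 3 genes. These letters are a description of the windows and say nothing of binding. The window of *Prkca* was richer in G and C, at 76.8% of 250 bases, than 97.2% of all promoter windows, while *Pcp2* and *Sebox*, at 52.8% and 52.4%, lay near the median of 52.4%. These are values of 3 genes, and their relation to the differences between the groups was not tested.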

How the data were processed

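The deposited table holds FPKM per gene, which the authors estimated with Cufflinks after mapping paired-end reads with TopHat2 to GRCm38 (per the submitters' processing notes; versions, annotation and strand use not given in the sources used here). Log2(FPKM + 0.1) of genes whose mean reached 0.1 FPKM entered a linear model in limma 3.58.1 under R 4.3.3 (lmFit, then eBayes with trend), *Lhx4* null minus control, two-sided, with Benjamini-Hochberg adjustment over all genes tested. The members and lists were chosen with earlier results of these data known. A few genes of 4 lists are not reported here, and those lists were counted without them, whatever their values. Named genes were the members, list genes past the threshold, the most abundant gene of each list, the 3 nearest profiles and the annotated neighbours; the others were named after their values were seen. Rows were tested by gene identifier, so a repeated symbol (6 in all) could enter the fit more than once. Depth was estimated from genes under 0.3 FPKM in every library, with 200 bases taken off annotated lengths from 800 to 4000 bases. Positions are from GENCODE vM21, which holds 21603 of 21744 identifiers. Fit and depth estimate were tested on simulated data. Alternatives changed pseudocount, filter, scaling, trend and block, and left out each library. P6 libraries were not analysed here. Python 3.11.15 and matplotlib 3.10.9 drew the plots.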

Additional observations from a re-analysis of the deposited data

How the results depend on the processing

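No alternative turned the direction of a member. The log2 difference of *Pcp2*, -2.17, was unchanged but its adjusted p in limma rose above 0.05 with no filter on low values (-2.17, adjusted p = 0.365), without the mean-variance trend (-2.17, adjusted p = 0.126) and with the replicate number as a block (-2.17, adjusted p = 0.0811). With each library left out in turn it ran from -2.43 to -1.82 and passed in 2 of 6 fits. *Prkca*, *Car8* and *Sebox* stayed above 0.05 in all 14 alternatives, with ranges over the fits that left out a library of -0.61 to -0.36, -1.40 to -1.00 and -1.23 to -0.77, and all 4 members kept an unadjusted p under 0.05 in all 14. The count of genes lower at an adjusted p under 0.05 in limma, 21, was 0 with no filter (716 lower and 791 higher at an unadjusted p under 0.05), 11 with the replicate block and from 13 to 19 with a library left out, and that of genes higher, 13, was 0, 4 and from 2 to 12. The deviations of same-numbered libraries from their group means correlated across genes at -0.127, -0.000198 and 0.162. Libraries with different numbers were not compared in this way, so whether the replicate numbers pair the libraries was not tested. Fits with a library left out have fewer samples; for the other settings the cause was not tested. The pair differences kept their direction in 24 of 24 alternative values, but with a pseudocount of 1 FPKM 3 of them shrank by over 1.5 times (*Prkca* minus *Car8* from 0.79 to 0.43, *Prkca* minus *Sebox* from 0.57 to 0.36, *Car8* minus *Sebox* from -0.22 to -0.08), and of the 16 SDs among controls under another pseudocount or scaling, that of *Car8* moved most, from 0.46 to 0.36 with a pseudocount of 1 FPKM. Leaving out a library, added after seeing the data, kept the direction of the pairs in 36 of 36 but took the SD among controls to 0.14 to 0.32 for *Prkca*, 0.25 to 0.87 for *Pcp2*, 0.01 to 0.57 for *Car8* and 0.14 to 0.66 for *Sebox*. Depth limits *Sebox* more than *Car8*, with at most about 46 to 55 fragments in the libraries labelled *Lhx4* null against about 89 to 119. *Pcp2* and *Prkca* have only upper limits and were not ranked.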
